A study of Mus musculus with 6 samples.

Results

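The lymphoid priming genes are 10 genes that mark the first steps of the lymphoid program in multipotent progenitors, namely Flt3, Il7r, Dntt, Satb1, Notch1, Ikzf1, Bcl11a, Tcf3, Ccr9 and Il12a. They were chosen by name, and their rows were found by Ensembl gene identifier among the 56750 rows of the deposited gene table. All 10 were found and all 10 passed the filter on low values. The DIC group had colitis after 5 days of 2.5% dextran sulfate sodium (DSS), an agent that injures the gut lining, and the other group were control mice. All were C57BL/6, and no age is stated in the sources used here. Femur marrow was sorted for LSK cells (Lin- Sca1+ cKit+), a gate that contains stem cells and multipotent progenitors, and their RNA was sequenced in bulk. Each group had 3 mice and 3 libraries, but the labels do not tie a library to a mouse, and the p-values below cover the spread among libraries, which may be technical. The libraries are called DIC 1, 2 and 3 and controls 1, 2 and 4 after the numbers in the table.

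As multipotent progenitors lose stem cell potential, a subset with a high level of the receptor Flt3, the lymphoid-primed multipotent progenitors, starts to transcribe genes that are later needed in B and T cells while it still keeps myeloid potential. Transcription factors such as Ikaros, encoded by Ikzf1, and E2A, encoded by Tcf3, open this program, Flt3 and the interleukin-7 receptor carry survival and growth signals, and Dntt and the Rag genes begin to act on antigen receptor genes. Inflammation and infection are known to shift marrow output toward myeloid cells, often at the expense of lymphoid precursors, and the comparison asks whether the priming genes differed after DSS.

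Values are in TPM, transcript abundances scaled by gene length and by the library's total, so that levels can be compared between genes. A total of 20474 to 22720 rows lay above 0 TPM in a library, and 13496 genes had at least 1 TPM in at least 3 libraries and were tested. Markers of the sort were present in every library, Kit at 90.7, 82.3 and 95.2 TPM in DIC and 54.2, 99.5 and 68.2 TPM in control, and Ly6a, which encodes Sca1, at 23.8, 18.9 and 15.5 TPM in DIC and 19.7, 33.03 and 49.9 TPM in control. A list of 16 neutrophil genes, which defines cells that an LSK gate should exclude, took 22.6%, 15.5% and 19.0% of TPM in DIC and 4.23%, 12.6% and 3.04% in control, so that control 2 stood apart from the other controls and close to DIC. TPM adds up to a fixed total, so a gene's TPM falls in a library where other genes take a larger share. In bulk RNA, fewer cells of a type and less RNA per cell cannot be told apart.

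The promoters of the members with the lowest p-values, Dntt and Il12a, and of Notch1, the one member higher in every DIC library than in every control library, are printed to show whether they hold the motifs of 2 other members. They come from RefSeq on build GRCm38.p6, which is not the build of the submitters, and run from 250 bases before to 50 bases after an annotated start. All 10 members matched, with 16 windows. Capitals mark the E-box CANNTG, bound by E proteins such as the product of Tcf3, and TGGGAA or its reverse complement TTCCCA, a core bound by Ikaros. Both strands were searched, the E-box being its own reverse complement.
Dntt (chr19:41029025-41029324, plus strand): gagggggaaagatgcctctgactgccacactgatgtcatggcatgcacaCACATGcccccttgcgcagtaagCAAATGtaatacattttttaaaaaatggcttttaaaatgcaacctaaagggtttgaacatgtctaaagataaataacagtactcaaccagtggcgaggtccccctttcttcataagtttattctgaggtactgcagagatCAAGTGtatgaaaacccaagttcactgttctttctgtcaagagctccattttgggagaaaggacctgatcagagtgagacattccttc
Il12a, upstream start (chr3:68690394-68690693, plus strand): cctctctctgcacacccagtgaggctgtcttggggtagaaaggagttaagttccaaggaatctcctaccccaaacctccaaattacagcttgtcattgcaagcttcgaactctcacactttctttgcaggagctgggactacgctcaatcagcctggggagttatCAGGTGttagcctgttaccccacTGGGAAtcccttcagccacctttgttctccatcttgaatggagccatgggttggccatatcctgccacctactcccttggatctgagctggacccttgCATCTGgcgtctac
Il12a, downstream start (chr3:68691174-68691473, plus strand): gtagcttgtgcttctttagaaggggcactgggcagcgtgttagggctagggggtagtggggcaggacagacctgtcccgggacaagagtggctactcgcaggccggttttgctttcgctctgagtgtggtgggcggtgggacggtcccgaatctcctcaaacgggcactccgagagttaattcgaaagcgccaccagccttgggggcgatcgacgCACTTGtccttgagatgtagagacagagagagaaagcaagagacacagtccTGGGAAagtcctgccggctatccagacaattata
Notch1 (chr2:26503773-26504072, minus strand): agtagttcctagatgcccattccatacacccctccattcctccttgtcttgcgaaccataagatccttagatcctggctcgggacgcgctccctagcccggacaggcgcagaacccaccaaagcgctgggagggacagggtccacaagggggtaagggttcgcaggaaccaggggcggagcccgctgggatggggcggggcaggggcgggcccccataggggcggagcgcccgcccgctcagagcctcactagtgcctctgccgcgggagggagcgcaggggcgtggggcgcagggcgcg

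The Dntt window held 3 E-boxes and no TGGGAA. The Il12a windows held 2 E-boxes and 1 TGGGAA at the upstream start, and 1 of each at the downstream start. Neither motif was in the Notch1 window. Among all 32851 windows of the table, 72.3% held an E-box and 25.6% held TGGGAA, so both motifs are common in windows of 300 bases. The Notch1 window is 68.3% G and C, the Dntt window 42.3%, and the median of all windows 52.7%. A match describes letters and does not show a bound site.

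Among the members, Il12a and Dntt were lower in DIC, Notch1 was higher, and the transcription factors Ikzf1, Tcf3, Bcl11a and Satb1 overlapped with the controls, but no difference passed the test over all genes. The plot of TPM by library shows these levels. With limma on log2(TPM + 1) and Benjamini-Hochberg adjustment over all tested genes, 0 of 10 members were called, where 0.0593% of tested genes were called, 0.037% higher and 0.0222% lower. At an unadjusted p under 0.05, Il12a and Dntt were lower and no member was higher, where 13.8% of tested genes were lower and 6.43% higher. The groups did not overlap for 3 members with lower values in DIC, Il12a, Dntt and Ccr9, where the same held for 18.4% of tested genes, and for 1 member with higher values, Notch1, where it held for 7.08%. Ccr9 passed the filter on low values through the controls, where it was higher, so its lack of overlap is no separate result. The members' shares were not far from those of all genes. Over the 10 members the median log2 fold change was -0.18, with 6 negative values, beside a median of -0.08 and 58.5% negative values over all tested genes. Without control 2 the members' median was -0.06, beside -0.07 over all genes, and with 1 library left out it ran from -0.26 to -0.06. Permuting the labels of 6 libraries could at best reach an exact p of 0.1, so no such test was made.

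**Figure D1:**
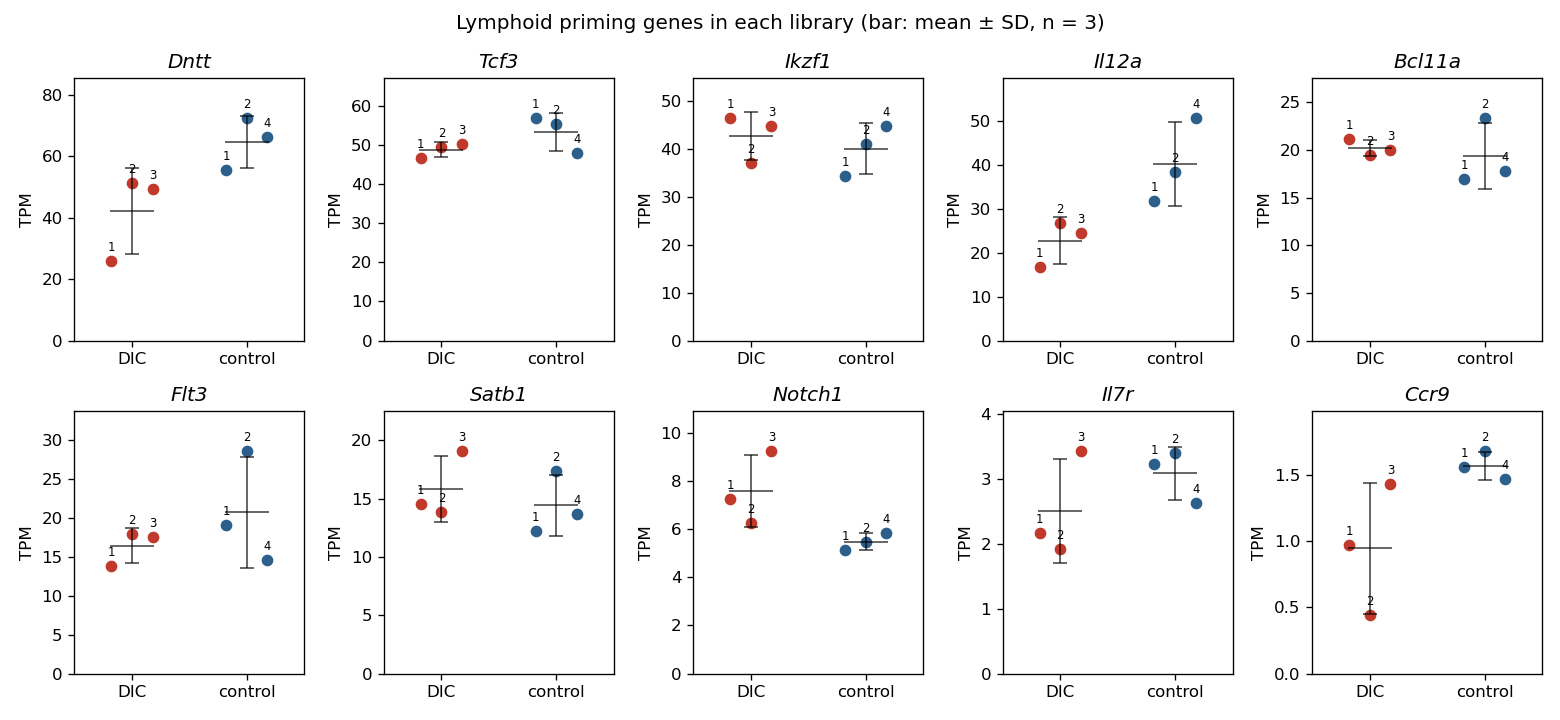
TPM of each of the 10 lymphoid priming genes (linear axes from 0), with DIC libraries in red and control libraries in blue, each point labelled with its library number, and bars for the mean ± SD of 3 libraries. Il12a, Dntt and Ccr9 were lower in every DIC library than in every control library, Notch1 was higher, and the other 6 overlapped. Ccr9 passed the filter on low values through the controls, so its lack of overlap is no separate result.

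The receptors that carry the first lymphoid signals overlapped between groups. Flt3 (ENSMUSG00000042817) encodes the receptor tyrosine kinase for Flt3 ligand, whose surface level defines lymphoid-primed progenitors. It measured 13.9, 18.0 and 17.5 TPM in DIC 1 to 3 and 19.1, 28.6 and 14.6 TPM in controls 1, 2 and 4. Control 2 was the highest library and control 4 lay within the DIC range. The log2 fold change was -0.28 ± 0.25 (SE), with a 95% interval of -0.86 to 0.31 and a limma adjusted p of 0.550, and it was -0.03 without control 2 and -0.49 without control 4. Il7r (ENSMUSG00000003882), the alpha chain of the interleukin-7 receptor on which mouse B and T cell precursors depend, was low everywhere, at 2.17, 1.93 and 3.43 TPM in DIC and 3.23, 3.41 and 2.63 TPM in control. DIC 3 was the highest of all 6 libraries and DIC 1 and 2 the lowest, so that the DIC range enclosed all controls. Its log2 fold change was -0.24 ± 0.23 (SE; 95% interval -0.79 to 0.31, limma adjusted p = 0.581), and it ran from -0.42 without DIC 3 to -0.12 without DIC 2.

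Notch1 was the only member with higher values in every DIC library. Notch1 (ENSMUSG00000026923) encodes a receptor whose cleaved intracellular part acts in the nucleus and directs progenitors to the T cell fate. It measured 7.25, 6.25 and 9.22 TPM in DIC and 5.12, 5.46 and 5.82 TPM in control, or 7.57 ± 1.51 against 5.47 ± 0.350 TPM (SD, n = 3 each). The gap between groups was small, from 6.25 TPM in DIC 2 to 5.82 TPM in control 4, and DIC 3 stood highest. The log2 fold change was 0.39 ± 0.19 (SE), with a 95% interval of -0.05 to 0.84 that includes 0 and a limma adjusted p of 0.288. Without DIC 3 it was 0.26.

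Ccr9, the chemokine receptor that guides progenitors to the thymus and plasmacytoid dendritic cells and lymphocytes to the gut, lay near the filter. Ccr9 (ENSMUSG00000029530) measured 0.970, 0.440 and 1.43 TPM in DIC and 1.56, 1.68 and 1.47 TPM in control. The groups did not overlap, but DIC 3 lay just below control 4, and it was the only DIC library above 1 TPM. Ccr9 was thus tested only because it was high in the controls, and its lack of overlap is no separate result. The log2 fold change was -0.43 ± 0.26 (SE; 95% interval -1.04 to 0.18, limma adjusted p = 0.377). It ran from -0.61 without DIC 3 to -0.23 without DIC 2. At such levels the added 1 TPM shrinks a fold change, and with a pseudocount of 0.1 it was -0.80.

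Dntt, which encodes terminal deoxynucleotidyl transferase, the polymerase that adds untemplated bases at antigen receptor joints, had the highest mean level of the 10 genes. Dntt (ENSMUSG00000025014) measured 25.97, 51.3 and 49.5 TPM in DIC and 55.5, 72.4 and 66.4 TPM in control, or 42.3 ± 14.1 against 64.7 ± 8.58 TPM (SD, n = 3 each). DIC 1 was far below the rest, whereas DIC 2 and 3 lay just below control 1. The log2 fold change was -0.66 ± 0.27 (SE; 95% interval -1.29 to -0.03), with an unadjusted p of 0.0428 and a limma adjusted p of 0.236. Without DIC 1 it was -0.35, and DIC 1 was also the library with the largest neutrophil share.

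Il12a showed the lowest p of the members. It encodes the alpha chain shared by the cytokines interleukin-12 and interleukin-35. Il12a (ENSMUSG00000027776) measured 16.8, 26.8 and 24.6 TPM in DIC and 31.8, 38.5 and 50.6 TPM in control, or 22.7 ± 5.30 against 40.3 ± 9.54 TPM (SD, n = 3 each), so that the DIC mean was 0.564 of the control mean. All 3 DIC libraries lay below all 3 controls, with DIC 1 lowest and control 4 highest. The log2 fold change was -0.80 ± 0.23 (SE; 95% interval -1.35 to -0.25), with an unadjusted p of 0.0107 and a limma adjusted p of 0.212. Leaving out 1 library at a time, it ran from -0.95 without control 1 to -0.60 without DIC 1.

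The 2 possible partner chains of Il12a had other patterns. Il12b, whose product joins that of Il12a in interleukin-12, was listed at 0 in DIC 1 and control 1 and did not exceed 0.15 TPM elsewhere. Ebi3, whose product joins it in interleukin-35, measured 60.2, 63.1 and 56.0 TPM in DIC and 30.1, 55.6 and 35.1 TPM in control, higher in every DIC library though by less than 1 TPM between DIC 3 and control 2. Its log2 fold change was 0.61 ± 0.22 (SE), with a limma adjusted p of 0.219. Of all tested genes, 7.08% were higher in DIC without overlap.

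The 4 regulators of the program overlapped between the groups. Ikzf1 (ENSMUSG00000018654) encodes Ikaros, a zinc finger protein without which mice lack B cells. It measured 46.4, 37.1 and 44.8 TPM in DIC and 34.3, 41.1 and 44.8 TPM in control, with a log2 fold change of 0.09 ± 0.15 (SE; 95% interval -0.27 to 0.45, limma adjusted p = 0.755). DIC 2 and control 1 were the low libraries of their groups and the ranges overlapped. Tcf3 (ENSMUSG00000020167) encodes the E2A proteins, basic helix-loop-helix factors that start B lineage transcription. Its levels were the most even, at 46.6, 49.4 and 50.3 TPM in DIC and 56.7, 55.3 and 47.8 TPM in control, with control 4 inside the DIC range. The log2 fold change was -0.12 ± 0.12 (SE), and its 95% interval of -0.40 to 0.16 leaves room for differences in either direction.

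Bcl11a (ENSMUSG00000000861), a zinc finger factor needed for B cell and plasmacytoid dendritic cell development, measured 21.2, 19.5 and 20.0 TPM in DIC and 17.0, 23.3 and 17.8 TPM in control. The DIC libraries lay within the control range, and the log2 fold change was 0.07 ± 0.16 (SE; 95% interval -0.30 to 0.44, limma adjusted p = 0.820). Satb1 (ENSMUSG00000023927), a chromatin organizer that promotes lymphoid differentiation of mouse stem cells, measured 14.6, 13.9 and 19.0 TPM in DIC and 12.2, 17.4 and 13.7 TPM in control. DIC 3 and control 2 were the highest libraries of their groups, and the log2 fold change was 0.13 ± 0.19 (SE; 95% interval -0.32 to 0.58, limma adjusted p = 0.734). The plot of fold changes shows that the intervals of 8 of the 10 members include 0, the exceptions being Il12a and Dntt.

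**Figure D2:**
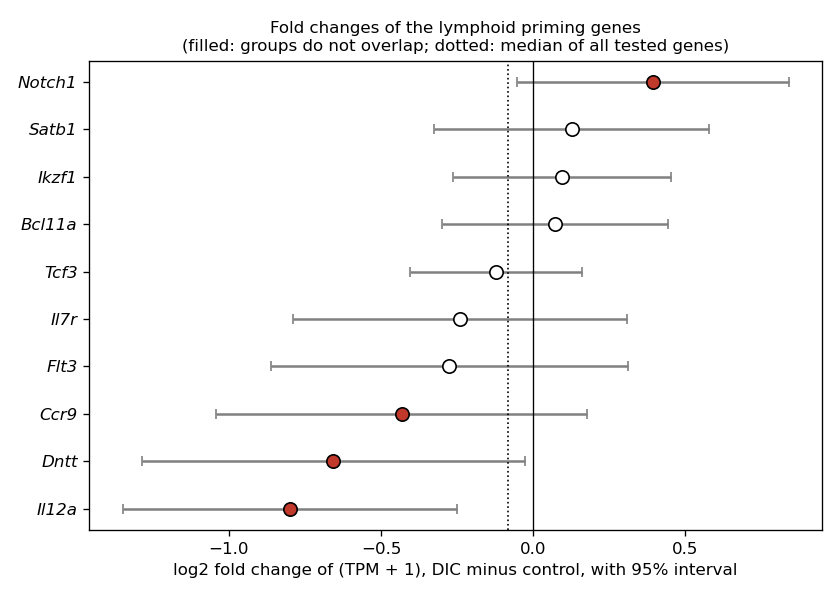
Log2 fold change of TPM + 1, DIC minus control, for each lymphoid priming gene, with its 95% interval from limma. Filled points mark genes whose groups do not overlap, the solid line marks 0 and the dotted line the median of all tested genes at -0.08. Values run from -0.80 for Il12a to 0.39 for Notch1.

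By mean TPM over the 6 libraries the order was Dntt at 53.5, Tcf3 at 51.0, Ikzf1 at 41.4, Il12a at 31.5, Bcl11a at 19.8, Flt3 at 18.6, Satb1 at 15.1, Notch1 at 6.52, Il7r at 2.80 and Ccr9 at 1.26. Several neighbours did not separate. Dntt exceeded Tcf3 in 3 of 6 libraries, all of them DIC 2 or controls 2 and 4, Bcl11a exceeded Flt3 in 4 and Flt3 exceeded Satb1 in 4. Tcf3 exceeded Ikzf1 in 6 of 6 libraries, and Satb1, Notch1, Il7r and Ccr9 kept their order in 6 of 6. Among tested genes Dntt ranked at percentiles 65.6 to 85.3 over the libraries, Flt3 at 49.5 to 67.2, Il7r at 13.7 to 23.0 and Ccr9 at 1.62 to 12.5.

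The scale of TPM bears on these differences. When the 16 neutrophil genes were removed and each library was rescaled to the same total, the median log2 fold change of all genes was 0.10 in place of -0.08. On that scale Il12a still had lower values in every DIC library, at 21.6, 31.8 and 30.3 in DIC and 33.2, 44.0 and 52.2 in control, and Notch1 higher ones. Dntt overlapped, at 33.5, 60.8 and 61.0 in DIC and 57.9, 82.9 and 68.4 in control, as did Ccr9. The log2 fold changes were -0.60 for Il12a, -0.46 for Dntt and 0.58 for Notch1, and that of Tcf3 was 0.08, just under the all-gene median. The median of the 10 members was -0.0021, below the all-gene median on that scale. With the mean log2 level of the neutrophil genes as a covariate, Il12a was at -0.35, Dntt at -0.37, Flt3 at -0.74 and Notch1 at 0.28, with limma adjusted p of 0.9999 each, and the signs of Satb1, Ikzf1 and Bcl11a turned negative. That level was 9.46 to 10.95 in DIC and 7.36 to 9.25 in control, so the covariate itself separates the groups. Values from this fit are therefore imprecise, the SE rising from 0.25 to 0.42 for Flt3 and from 0.27 to 0.49 for Dntt.

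Control 2 decided how many genes were called in all, but not the members. Without it, 530 tested genes were called higher and 1141 lower by limma, 3.93% and 8.45% of all, and 0 of the 10 members were among them. Il12a was then at -0.82 (limma adjusted p = 0.104), Dntt at -0.57 (0.258) and Notch1 at 0.39 (0.255). With all 6 libraries 5 genes were called higher and 3 lower, and this was 0 without DIC 1 (1239 genes at an unadjusted p under 0.05) or without control 4 (1458 genes), 16 and 4 without DIC 2, 4 and 4 without DIC 3, and 3 and 3 without control 1. No member was called without any one of the 6 libraries.

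Other genes of the early lymphoid program had mostly negative fold changes, though none passed the test. Of 18 such genes 14 were tested and 0 were called, 12 were negative and the median was -0.47, beside 6 of 10 and -0.18 for the members. The order of these medians depended on control 4, without which they were -0.24 and -0.26, and it also turned with the neutrophil covariate, at -0.19 and -0.32. Groups did not overlap for 6 of the 14, all lower in DIC, where 18.4% of all tested genes were lower in this way, namely Mef2c, Ly6d, Cnn3, Ccr7, Tcf7 and Foxo1. Ly6d, a surface marker of B-biased lymphoid progenitors, measured 36.4, 33.5 and 43.3 TPM in DIC and 66.8, 50.4 and 54.9 TPM in control, with a log2 fold change of -0.59 ± 0.16 (SE; limma adjusted p = 0.212). Mef2c, a transcription factor that favours lymphoid over myeloid fate, measured 23.3, 30.9 and 33.2 TPM in DIC and 46.9, 41.8 and 83.4 TPM in control (-0.90 ± 0.27, SE; limma adjusted p = 0.212). Rag1 and Rag2, which encode the recombinase of antigen receptor genes, overlapped, Rag2 at 1.22, 2.93 and 3.99 TPM in DIC and 1.47, 4.65 and 4.16 TPM in control and Rag1 at no more than 0.78 TPM in any library. Jchain, which joins secreted immunoglobulin chains and is also transcribed in early lymphoid progenitors, went the other way, at 132, 26.9 and 55.2 TPM in DIC and 3.39, 30.5 and 6.68 TPM in control, with control 2 inside the DIC range. Without control 2, 1 of the 14 was called lower, Ly6d (limma adjusted p = 0.0476), and 1 higher, Jchain (0.0321). In that setting 8.45% of all tested genes were called lower and 3.93% higher. These shares also apply to each call without control 2 that is given below. Leaving out control 2 favours calls for genes where it lay within, near or beyond the DIC range. Calls made only without it are therefore no independent result.

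Signalling partners of the Flt3 and interleukin-7 receptors had a median of -0.03, with 0 of 13 tested genes called. Groups did not overlap for 1 of the 13, lower in DIC, where 18.4% of all tested genes were lower in this way. This was Il2rg, the common gamma chain that pairs with the product of Il7r. It measured 59.6, 56.8 and 59.2 TPM in DIC and 68.3, 79.0 and 94.1 TPM in control (log2 fold change -0.44 ± 0.14, SE; limma adjusted p = 0.212). Bcl2, the survival gene downstream of the interleukin-7 receptor, measured 7.16, 12.6 and 10.4 TPM in DIC and 11.9, 16.5 and 14.9 TPM in control and overlapped. Tslp, a cytokine whose receptor shares the Il7r chain, measured 4.35, 5.74 and 5.56 TPM in DIC and 11.7, 5.13 and 21.55 TPM in control. Control 2 lay inside the DIC range, and the log2 fold change was -0.96 ± 0.44 (SE; limma adjusted p = 0.270). It was called lower only without control 2 (log2 fold change -1.45, limma adjusted p = 0.0325).

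In the Notch pathway 17 of 23 genes were tested, 0 were called, and 8 were positive and 9 negative. Groups did not overlap for 2 of the 17 with higher values in DIC, where this held for 7.08% of all tested genes. They did not overlap for 2 with lower values, where it held for 18.4%. Maml2, a coactivator of the cleaved receptor, measured 1.36, 5.14 and 9.79 TPM in DIC and 0.220, 0.660 and 0.360 TPM in control, and Numb, an inhibitor of Notch signalling, 32.95, 18.7 and 26.2 TPM in DIC and 10.5, 19.3 and 11.8 TPM in control, with limma adjusted p of 0.212 for both. Numb overlapped through control 2 and was called higher without it (limma adjusted p = 0.0414), while Maml2 was higher in every DIC library. Maml2 reached 1 TPM only in the DIC libraries. It was thus tested only because it was high there, and its lack of overlap is no separate result. Adam10, the protease that makes the activating cut outside the cell, was higher in every DIC library too, at 46.5, 31.6 and 39.5 TPM in DIC and 31.3, 30.3 and 24.8 TPM in control, with DIC 2 just above control 1. Aph1a and Psenen, subunits of the gamma-secretase that makes the cut in the membrane, were lower in every DIC library, Aph1a at 34.6, 33.7 and 34.1 TPM in DIC and 48.4, 37.0 and 41.2 TPM in control and Psenen at 177, 184 and 175 TPM in DIC and 204, 193 and 206 TPM in control. The target genes Hes1, Hey1, Heyl, Dtx1 and Nrarp did not exceed 1.99 TPM in any library, and none was higher in every DIC library. Hes1 measured 0.370, 0.720 and 1.42 TPM in DIC and 1.08, 1.73 and 1.99 TPM in control, Nrarp 0.250, 0 and 0.410 TPM in DIC, where it was listed at 0 in DIC 2, and 0.580, 1.03 and 1.13 TPM in control.

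Partners and inhibitors of E proteins had a median of -0.29, with 8 of 10 tested genes negative, where 58.5% of all tested genes were, 5 lower without overlap, where 18.4% of all were, and 0 called. Id3, an inhibitor that keeps E proteins from binding DNA and is itself induced by signals such as TGF-beta, measured 1.30, 2.56 and 3.22 TPM in DIC and 17.2, 5.59 and 20.5 TPM in control, a log2 fold change of -2.07 ± 0.47 (SE; limma adjusted p = 0.212). Control 2 lay between DIC and the other controls. Tcf12, a second E protein gene, measured 13.3, 13.9 and 15.7 TPM in DIC and 18.3, 25.0 and 20.5 TPM in control (-0.53 ± 0.16, SE; limma adjusted p = 0.212). Id2, an inhibitor also made in myeloid cells, measured 107, 100 and 110 TPM in DIC and 49.0, 118 and 45.6 TPM in control, where control 2 exceeded all 3 DIC libraries. Without control 2, Id3 was called lower (log2 fold change -2.60, limma adjusted p = 0.0162) and Id2 higher (1.15, 0.0118).

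For the Ikaros family and the NuRD remodelling complex that Ikaros recruits, 10 of 12 tested genes were negative with a median of -0.17, 4 were lower without overlap, where 18.4% of all tested genes were, and 0 were called. The 4 were Mbd3, Rbbp7, Rbbp4 and Mta1, of which Mbd3 measured 71.0, 96.0 and 89.8 TPM in DIC and 147, 101 and 121 TPM in control and Rbbp7 161, 188 and 183 TPM in DIC and 259, 197 and 265 TPM in control (limma adjusted p = 0.216 for both). Without control 2, Rbbp7 was called lower (log2 fold change -0.57, limma adjusted p = 0.0326). Of 9 end joining genes that work with Dntt, 0 were called. The Ku chains had fold changes of opposite sign, Xrcc6 at 53.6, 62.1 and 62.3 TPM in DIC and 80.6, 74.9 and 70.6 TPM in control, and Xrcc5 at 11.8, 6.75 and 10.0 TPM in DIC and 5.57, 6.58 and 4.61 TPM in control. Their limma adjusted p were 0.216 and 0.218, and DIC 2 lay just above control 2 for Xrcc5. Of the 9 genes, 2 were higher and 1 lower without overlap, where 7.08% and 18.4% of all tested genes were. The receptor, ligand and cytokine partners of Ccr9 and Il12a had 0 calls among 6 tested genes. Cxcr4, which holds progenitors in the marrow, overlapped, at 32.8, 28.5 and 35.0 TPM in DIC and 40.4, 32.2 and 49.9 TPM in control, and Ebi3 was called higher without control 2 (limma adjusted p = 0.0220).

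**Figure D3:**
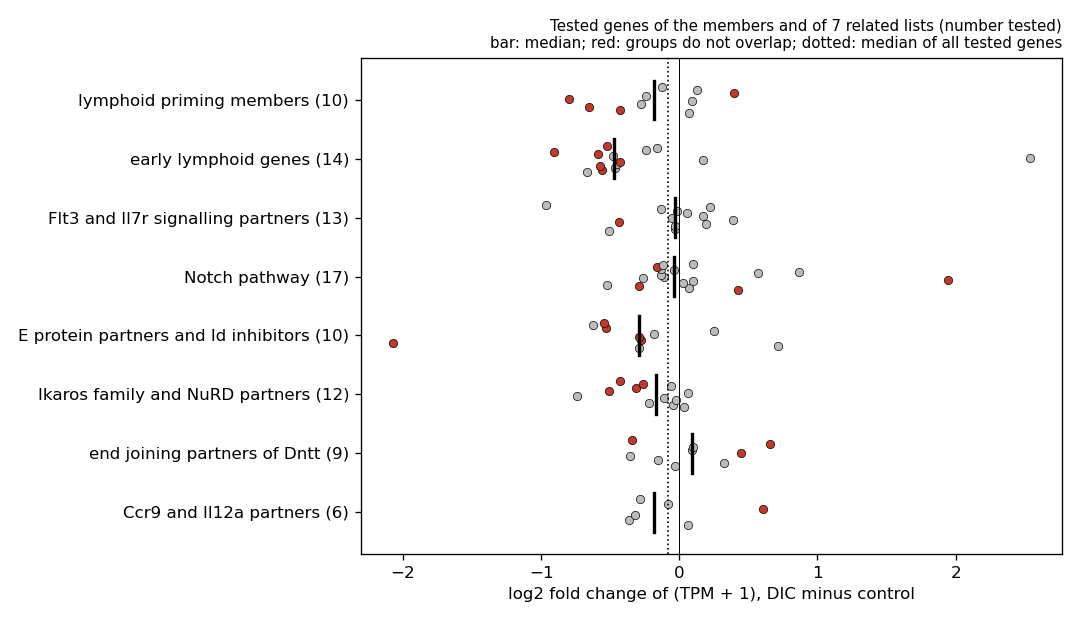
Log2 fold change of TPM + 1, DIC minus control, of every tested gene in the lymphoid priming list and 7 related lists, with the number tested in brackets. Black bars mark the list medians, red points mark genes whose groups do not overlap, and the dotted line marks the median of all tested genes. The median is -0.18 for the members and -0.47 for the early lymphoid genes, an order that turned without control 4 and with the neutrophil covariate.

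Several members are also transcribed in cells other than lymphoid-primed progenitors, so marker lists of those cells are given beside them, and their part in the differences was not tested. In the B lineage list 8 of 9 tested genes were negative with a median of -0.72, and its summed level was 128 to 240 TPM in DIC and 244 to 576 TPM in control. The surrogate light chain genes of B cell precursors, in which Dntt is also active, were lower in every DIC library, Vpreb1 at 13.3, 45.4 and 42.4 TPM in DIC and 46.0, 59.3 and 118 TPM in control, Vpreb2 at 2.70, 4.54 and 6.37 TPM in DIC and 6.38, 10.3 and 14.8 TPM in control, and Igll1 at 20.5, 59.4 and 55.6 TPM in DIC and 64.0, 79.9 and 158 TPM in control. They were chosen after their values were seen, and 18.4% of all tested genes were lower without overlap. The gap was small for Vpreb1, from 45.4 TPM in DIC 2 to 46.0 TPM in control 1. For Vpreb2 it was almost nil, from 6.37 TPM in DIC 3 to 6.38 TPM in control 1. Vpreb3, at 17.4, 36.6 and 43.0 TPM in DIC and 30.1, 46.2 and 91.6 TPM in control, overlapped. DIC 1 was lowest in all 4, as in Dntt and Il12a, while control 4 was highest in all 4 and in Il12a but not in Dntt. Cd79a, a signalling chain of the B cell receptor, overlapped, at 23.2, 28.7 and 37.1 TPM in DIC and 29.4, 38.6 and 69.8 TPM in control.

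In the plasmacytoid dendritic cell list, which includes Ccr9, all 9 tested genes were negative with a median of -0.63, and the summed level was 170 to 210 TPM in DIC and 296 to 559 TPM in control. Its defining gene Siglech measured 4.47, 2.43 and 1.41 TPM in DIC and 11.3, 4.48 and 4.84 TPM in control. The conventional dendritic cell list, which includes Flt3, had 7 of 8 tested genes negative, a median of -0.73 and a sum of 267 to 317 TPM in DIC and 417 to 598 TPM in control. Its factor Zbtb46 overlapped, at 3.35, 1.78 and 3.41 TPM in DIC and 2.30, 2.49 and 2.52 TPM in control. In the innate lymphoid list, which includes Il7r, 3 of 5 tested genes were negative, with a sum of 111 to 123 TPM in DIC and 61.4 to 132 TPM in control, mostly from Id2. Its factor Gata3 did not exceed 0.96 TPM and Il1rl1, the receptor for interleukin-33, measured 3.68, 2.06 and 2.34 TPM in DIC and 1.06, 3.28 and 3.84 TPM in control.

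T cell markers were near 0, Cd3e listed at 0 in DIC 2 and at no more than 1.57 TPM elsewhere and Cd3d at no more than 2.08 TPM, while all 9 tested genes of the T and NK list were negative (median -0.56, sum of 1323 to 1794 TPM in DIC and 1778 to 2263 TPM in control). That sum is mostly Nkg7, at 1302, 1782 and 1483 TPM in DIC and 1958, 1747 and 2206 TPM in control. All 16 neutrophil genes were positive with a median of 1.94, S100a8 at 105476, 63966 and 86346 TPM in DIC and 18349, 52974 and 13283 TPM in control and S100a9 at 69749, 51010 and 59227 TPM in DIC and 14055, 41595 and 10554 TPM in control. All 12 erythroid genes were positive as well, with a median of 1.06 and a sum of 719 to 2066 TPM in DIC and 566 to 782 TPM in control, the factor Klf1 at 57.4, 26.8 and 50.9 TPM in DIC and 19.4, 30.9 and 15.8 TPM in control and Gata1 at 29.4, 18.7 and 28.7 TPM in DIC and 16.0, 27.2 and 17.9 TPM in control. Basophil and mast cell genes were negative in 8 of 9, with a median of -1.37 and a sum of 449 to 620 TPM in DIC and 1069 to 3504 TPM in control, and their proteases did not overlap, Prss34 at 132, 169 and 209 TPM in DIC and 864, 415 and 1800 TPM in control and Mcpt8 at 93.5, 136 and 146 TPM in DIC and 499, 286 and 1122 TPM in control. The monocyte and macrophage list had a median of -0.36, with 6 of 9 tested genes negative, and a sum of 4937 to 5269 TPM in DIC and 4603 to 7485 TPM in control, with Csf1r at 28.0, 18.1 and 18.8 TPM in DIC and 46.6, 23.7 and 31.0 TPM in control and Ly6c2 at 4994, 4869 and 4754 TPM in DIC and 6191, 4382 and 7026 TPM in control. The list of sort and stem cell genes had 5 positive and 4 negative values and a sum of 347 to 406 TPM in DIC and 456 to 537 TPM in control. Cd48, a surface marker of multipotent progenitors, and Cd34 were lower in every DIC library, Cd48 at 138, 149 and 160 TPM in DIC and 260, 214 and 240 TPM in control and Cd34 at 63.9, 95.8 and 92.1 TPM in DIC and 102, 129 and 125 TPM in control. They were the only 2 of 9 tested genes of that list lower without overlap, where 18.4% of all tested genes were. In the basophil and mast cell list 8 of 9 were lower without overlap. By limma, 0 genes of these lists passed the threshold over all genes with all 6 libraries. Without control 2, 12 of 16 neutrophil genes were called higher, and 5 of 9 basophil and mast cell, 4 of 9 plasmacytoid dendritic, 2 of 9 monocyte, 1 of 9 T and NK and 1 of 8 conventional dendritic genes lower. Of the sort and stem cell list, Cd48 was then called lower, of the innate lymphoid list Id2 was higher, and of the B lineage and erythroid lists 0 were called. Over all tested genes, 3.93% were called higher and 8.45% lower in that setting. Control 2 stood apart by its share of these same neutrophil genes, so their calls without it are no independent result.

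**Figure D4:**
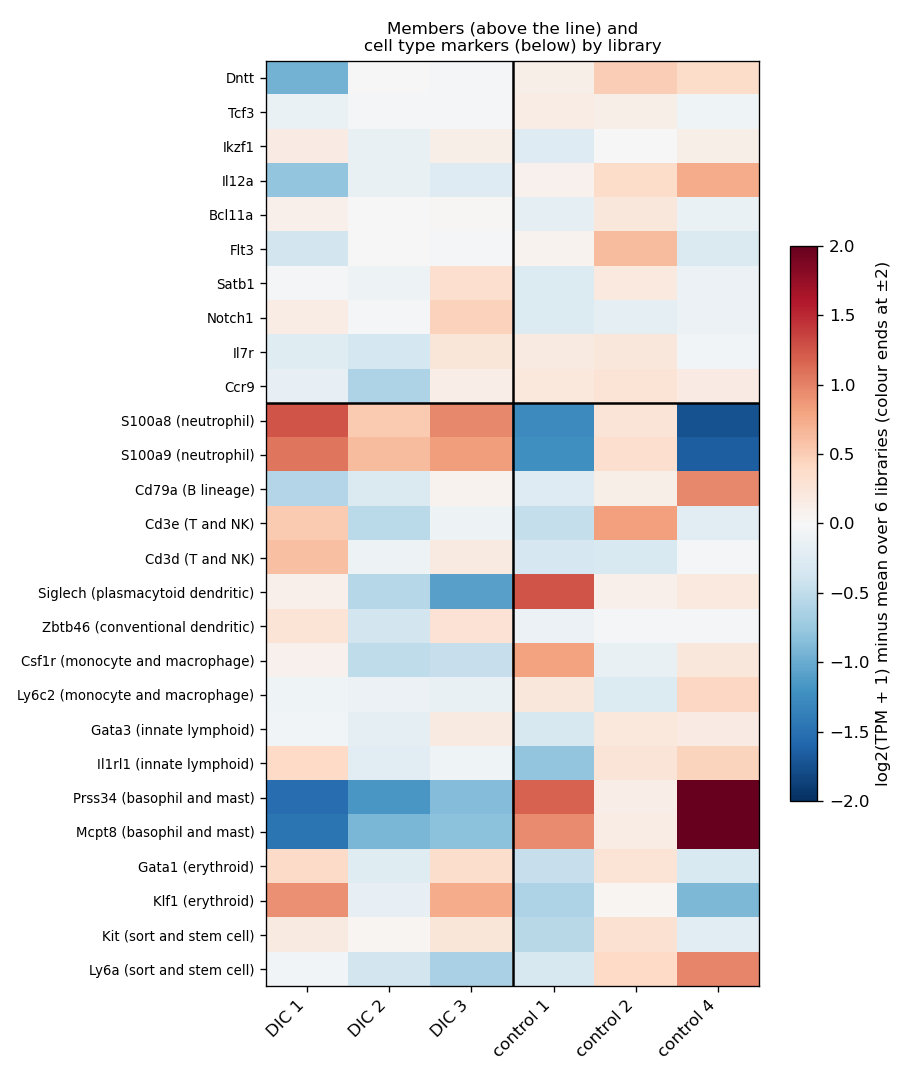
Log2(TPM + 1) in each library minus the mean over the 6 libraries, in colour, for the 10 lymphoid priming genes above the line and for the first 2 markers of each cell type list below it (1 for the B lineage and where the other is a member). Columns are DIC 1 to 3 and controls 1, 2 and 4. The neutrophil and basophil markers span a wider colour range than the members, and DIC 1 is lowest for Dntt and Il12a.

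**Figure D5:**
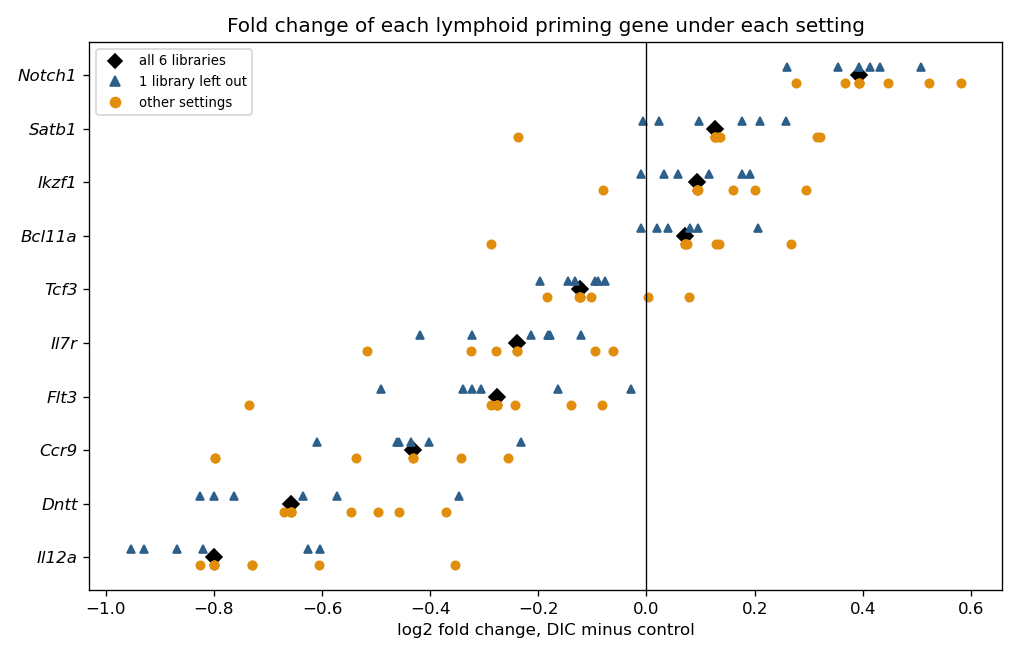
Log2 fold change of each lymphoid priming gene, DIC minus control, with all 6 libraries (black diamonds), with 1 library left out (blue triangles) and under the other settings (orange circles). Il12a, Dntt, Ccr9, Flt3 and Il7r were negative and Notch1 positive under all settings run, whereas Satb1, Ikzf1, Bcl11a and Tcf3 crossed 0.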

How the data were processed

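The data are TPM values as the authors deposited them, in 1 table (56750 rows, 6 libraries). Per the submitters' processing notes, fastp 0.19.5, HISAT2 2.1.0, StringTie 2.1.2 and build GRCm39 were used, and no source used here names the annotation release. Since TPM does not retain read depth, depth is unknown and no interval for counting error can be given. Per the labels' protocols the libraries came from a SMART-Seq low-input kit, and no strand setting is stated, so reads of overlapping antisense genes may be included. The group of each column was clear from its name, but control columns 1 and 4 could not be tied to single samples, because 1 control sample is titled 1 and described as 4. Pairwise correlations of log2(TPM + 1) were 0.907 to 0.964 over 15 pairs, so no library repeated another.

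Symbols were matched by Ensembl identifier to a GRCm38 annotation, and all 221 list entries found 1 row each. Genes reaching 1 TPM in 3 or more libraries were kept, and their log2(TPM + 1) entered limma 3.58.1 (R 4.3.3), where group was the only term and the prior variance followed a trend on mean level. P-values are two-sided, adjusted by Benjamini-Hochberg over all 13496 tested genes at a threshold of 0.05. The fit was also run on simulated data with independent noise and no library that stood apart as control 2 did. That run cannot show how the fit behaves with such a library. Members and lists were chosen with earlier results of these data known. Named are all 10 members, in each other list all called genes or, where there were none, the 2 of lowest p, and the first 2 markers of each cell type. Other genes named in the text were added for their role after their values were seen. From the B lineage list and from the sort and stem cell list, 1 marker each is not reported here on its own.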

Additional observations from a re-analysis of the deposited data

How the results depend on the processing

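Under 14 settings, which were another pseudocount, 2 filters, quantile normalization, removal of the neutrophil genes, the neutrophil covariate, no trend, array weights and each library left out, 130 of 138 fold changes of members kept their direction and 0 were called, the lowest limma adjusted p being 0.0868 for Il12a with array weights. A filter of 5 TPM left out Il7r and Ccr9. Tcf3 was at 0.0032 after quantile normalization and 0.079 without the neutrophil genes. With the covariate, Satb1 was at -0.24, Ikzf1 at -0.081 and Bcl11a at -0.29. With 1 library left out, Satb1 ran from -0.0067 to 0.26, Ikzf1 from -0.011 to 0.19 and Bcl11a from -0.011 to 0.21. The members' median was -0.025 with a filter of 5 TPM, which removes 2 negative members, and -0.0021 without the neutrophil genes, where the all-gene median was 0.10. For the other lists, 16 of 91 medians moved by more than the spread between libraries. Apart from the members a filter removes, the cause was not tested.

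Over all genes, the calls higher and lower, 5 and 3 as reported, were 2 higher with a pseudocount of 0.1, 1 lower after quantile normalization, 8 higher with array weights, and 0 and 0 with no filter (3241 genes at an unadjusted p under 0.05) and with the covariate (317 genes). With 1 library left out they ran from 0 to 530 higher and 0 to 1141 lower. No paired analysis was possible because only number 2 is shared by a DIC column and a control column that can each be tied to a single sample. Precision is limited by 3 libraries per group and an unknown depth.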
